A study of Mus musculus with 12 samples.

Results

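The proteasome subunits described here are the 39 genes whose symbol is Psma, Psmb, Psmc or Psmd followed by a number. They were picked by symbol alone from 26639 features counted in white adipose tissue (WAT) and 22851 counted in cultured adipocytes, all 39 are listed in both tables, and pseudogenes and numbered copies of a symbol were kept out. The mice carried a conditional deletion of Xap5, whose mouse gene is Fam50a, driven by Adiponectin-Cre, a recombinase that acts in mature adipocytes. WAT of wild-type (WT) and conditional knockout (cKO) mice was sampled on postnatal day 42. The cultured adipocytes, WT or labelled KO, were grown from pre-adipocytes of the subcutaneous WAT of newborn mice and sampled on day 8 of induction with insulin, dexamethasone and IBMX, a cocktail that both genotypes received. When the deletion took place in the KO cultures is not given in the sources used here and was not measured. Each of the 4 groups held 3 libraries of messenger RNA. Nothing in the labels ties the 3 libraries of a group to separate animals or cultures, and every p-value therefore measures the spread among these libraries alone, which may be technical.

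The proteasome degrades proteins that carry ubiquitin chains. Its core particle is a barrel of alpha rings, which gate the entrance, around beta rings, whose catalytic subunits Psmb5, Psmb6 and Psmb7 cut peptide bonds with chymotrypsin-like, caspase-like and trypsin-like preference. In cells exposed to interferon, Psmb8, Psmb9 and Psmb10 take the place of these subunits and form the immunoproteasome, which supplies peptides to class I antigen presentation. The regulatory particle caps the barrel: its base holds the ATPases Psmc1 to Psmc6, which unfold substrates, with the scaffolds Psmd1 and Psmd2 and the ubiquitin receptor Psmd4, and its lid holds the deubiquitinase Psmd14 with its scaffold partners. The transcription factor encoded by Nfe2l1 raises many subunit genes together when proteasome activity falls short, through antioxidant response elements, and it is active in adipose tissue.

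Promoter letters are shown for those catalytic subunits, constitutive and immune, for which a window was found, and for Psmc6, the member with the highest fold change in WAT, to set those that hold a motif beside those that do not. Each run holds up to 250 bases before the gene start, 5′ to 3′ in the orientation of the gene, from RefSeq on GRCm38.p6. Where the start of the window lies inside the gene span given below, the bases inside the span are left out (33 in Psmb6 and 1 in Psmc6). Capitals mark the antioxidant response element core TGACNNNGC on either strand in Psmb5 and Psmc6, and the gamma-activated site TTCNNNGAA, the core of a site for interferon-activated factors, in Psmb8. The match of Psmb6 to TGACNNNGC lies in the bases left out, and the runs of Psmb9 and Psmb10 hold neither motif.
Psmb5 (chr14:54617996-54618245, minus strand): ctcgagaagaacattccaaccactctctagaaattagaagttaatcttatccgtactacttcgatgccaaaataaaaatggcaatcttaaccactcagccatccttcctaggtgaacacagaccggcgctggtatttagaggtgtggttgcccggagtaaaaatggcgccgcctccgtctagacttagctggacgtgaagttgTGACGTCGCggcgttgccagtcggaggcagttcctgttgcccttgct
Psmb6 (chr11:70525107-70525323, plus strand): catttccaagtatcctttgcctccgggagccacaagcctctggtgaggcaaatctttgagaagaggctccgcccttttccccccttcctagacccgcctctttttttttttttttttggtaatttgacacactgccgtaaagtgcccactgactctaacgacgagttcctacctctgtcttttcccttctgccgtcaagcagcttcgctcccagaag
Psmb8 (chr17:34197945-34198194, plus strand): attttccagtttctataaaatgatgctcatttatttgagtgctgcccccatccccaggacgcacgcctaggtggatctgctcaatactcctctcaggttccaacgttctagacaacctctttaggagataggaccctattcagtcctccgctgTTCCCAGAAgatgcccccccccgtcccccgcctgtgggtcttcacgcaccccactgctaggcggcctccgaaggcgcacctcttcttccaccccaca
Psmb9 (chr17:34187331-34187580, minus strand): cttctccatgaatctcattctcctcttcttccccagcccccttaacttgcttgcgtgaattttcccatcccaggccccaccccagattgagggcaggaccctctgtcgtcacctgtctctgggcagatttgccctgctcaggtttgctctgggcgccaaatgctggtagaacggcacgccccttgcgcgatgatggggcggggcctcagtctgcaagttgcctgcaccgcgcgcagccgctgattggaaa
Psmb10 (chr8:105938393-105938642, minus strand): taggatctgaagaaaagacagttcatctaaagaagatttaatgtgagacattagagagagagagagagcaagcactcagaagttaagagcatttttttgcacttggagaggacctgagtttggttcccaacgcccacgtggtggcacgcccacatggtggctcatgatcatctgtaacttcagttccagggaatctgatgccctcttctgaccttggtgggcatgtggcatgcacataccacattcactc
Psmc6 (chr14:45329574-45329822, plus strand): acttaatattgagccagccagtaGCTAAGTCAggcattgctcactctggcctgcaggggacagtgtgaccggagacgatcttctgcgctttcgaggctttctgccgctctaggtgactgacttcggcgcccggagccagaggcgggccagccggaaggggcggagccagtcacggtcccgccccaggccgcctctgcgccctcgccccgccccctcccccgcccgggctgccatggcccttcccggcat
In windows from 250 bases before to 50 after the start, which were found for 32 members (34 windows), TGACNNNGC stood in 5 windows (14.7%), those of Psmb5, Psmb6, Psmc6, Psmd9 and Psmd12, against 12.4% of all 32851 windows. CCAAT stood in 38.2% of the members' windows and 37.4% of all windows. TTCNNNGAA stood in 2 (5.88%, Psmb8 and Psmd2, against 8.3%) and the interferon-stimulated response element (GAAA, any 2 bases and GAAA) in 3 (8.82%, Psmb3, Psmd4 and Psmd9, against 3.44%). Both strands were searched. These matches describe letters and not binding, and no result below rests on them.

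Libraries held 28844370 to 33997204 counts in WAT and 10863158 to 21773610 in culture. Fam50a itself had levels of 35.3, 32.5 and 36.5 CPM (the count of a gene relative to the total of the library, with library sizes scaled by the TMM method, which takes most genes as unchanged) in WT WAT and of 23.3, 16.8 and 28.9 in cKO. Its log2 fold change, cKO against WT, was -0.60 (edgeR's quasi-likelihood test, adjusted p = 0.0395, where adjusted means by Benjamini-Hochberg over all genes tested). With library size only it was at 0.09 (adjusted p = 0.736), so its fall in WAT depended on the scaling. In culture its levels were 57.9, 52.0 and 45.2 CPM in WT and 46.2, 42.9 and 41.1 in KO, with overlapping groups (-0.26, adjusted p = 0.134, and -0.31, adjusted p = 0.0668, with library size only). Which exons were deleted is not given in the sources used here, so counts over the whole gene cannot check the labels fully. Among 8 adipocyte markers in the WT libraries, Adipoq, the adipokine adiponectin, stood at 4609, 5370 and 5041 CPM in WAT and 2118, 2003 and 1967 in culture. Lep, however, stood at 293, 432 and 387 CPM in WT WAT and at only 0.253, 0 and 0.396 in the WT cultures. In the WT cultures the 8 markers together took 1.88% to 2.05% of counts. In cKO WAT, 7 of 8 adipocyte markers were lower, Adipoq standing at 908, 1931 and 614 CPM. Their summed share of counts was 4.81% to 5.06% in WT and 0.985% to 2.37% in cKO, highest in cKO replicate 2. There 9 of 14 leukocyte markers were higher, with a summed level of 378 to 583 CPM in WT and 1879 to 4066 in cKO. In these bulk samples fewer cells of a type and less RNA per cell cannot be told apart. In culture, 3 of 7 tested adipocyte markers were higher in KO (Adipoq, Cidec and Fabp4). The macrophage markers Cd68, Csf1r and Lyz2, 3 of 8 leukocyte markers tested, were lower, the summed level of the list being 2755 to 3031 CPM in WT and 2008 to 2369 in KO, while Cd8a, Ncr1 and Flt3 were at 0 in all 6. The part of these cell markers in the results below was not tested.

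In WT tissue the subunits were far from equal in level. Levels per kilobase use the length of 1 GENCODE transcript per gene, the longest of those marked as principal where any was. They depend on that choice, and no other was tried. In WT WAT, Psma1 and Psma2 stood at 177 and 161 CPM but at 147 and 55.3 CPM per kilobase, with lengths of 1201 and 2911 bases. Per kilobase of transcript, the 34 constitutive members (all but the 3 immune subunits, Psma8 and Psmb11) ranged in WT WAT from 12.1 CPM for Psmd10, an assembly chaperone of the base, over a median of 109 to 328 for Psmb5. With the numbered copies that the WAT table lists for some genes summed, Psmd10 was at 16.8, the lowest was Psmc6 at 13.4 and the median was 114. In the WT cultures they ranged from 10.5 for Psmd9, another base chaperone, over a median of 109 to 294 for Psmb4, a structural subunit of the beta ring. Of the immune subunits in WT WAT, Psmb8 at 62.4 and Psmb9 at 30.3 CPM per kilobase were below the constitutive median and Psmb10 at 109 was level with it, and with copies summed Psmb8 was above it at 126 and Psmb9 below at 63.0. In the WT cultures all 3 were below the median, at 26.5, 13.8 and 34.7. The 2 tables were scaled separately, so levels are compared within a table only. The order of the 34 constitutive members was alike in both, with a Spearman correlation of 0.861 across genes, which are not independent replicates and share their transcript lengths. Psma8, the testis form of an alpha subunit, had 6, 7 and 2 counts in WT WAT, 23, 10 and 26 in cKO, 10, 6 and 5 in the WT cultures and 4, 8 and 6 in KO. Psmb11, the thymus form of the chymotrypsin-like subunit, had 0 counts in all WAT libraries and 1 read in 1 KO culture. Both fell under the count filter, so 37 of the 39 members were tested in WAT and in culture.

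In cKO WAT most proteasome subunits took a smaller share of the scaled counts than in WT, a result whose direction depended on the scaling. With TMM, 24 of the 37 tested members were lower (24.2% of all 16293 genes tested were), 1 was higher, Psmc6 (28.2% of all genes were), and 12 did not pass. The median log2 fold change of the members was -0.63, against 0.12 over all genes tested. In 26 members every cKO library lay below every WT library (29.3% of all genes), in 1 above (35.1%), and in 10 the groups overlapped. Scaled by library size only, 10 members were higher (54.2% of all genes), 1 was lower, Psmd3 (8.76%), and the median was 0.05 against 0.80 over all genes. TMM gave the cKO libraries a mean factor of 1.27 and the WT libraries 0.790. The gap between the members and all genes was -0.75 under both scalings, since scaling a library moves all its genes alike. In raw terms the 34 constitutive members together took 0.467% ± 0.0255 (SD, n = 3) of all counts in WT and 0.479% ± 0.0362 in cKO, while their summed TMM-scaled level was 5916 ± 346 CPM and 3794 ± 394. Thus relative to the median gene the members were low in cKO, and relative to the total of counts they were not.

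**Figure D1:**
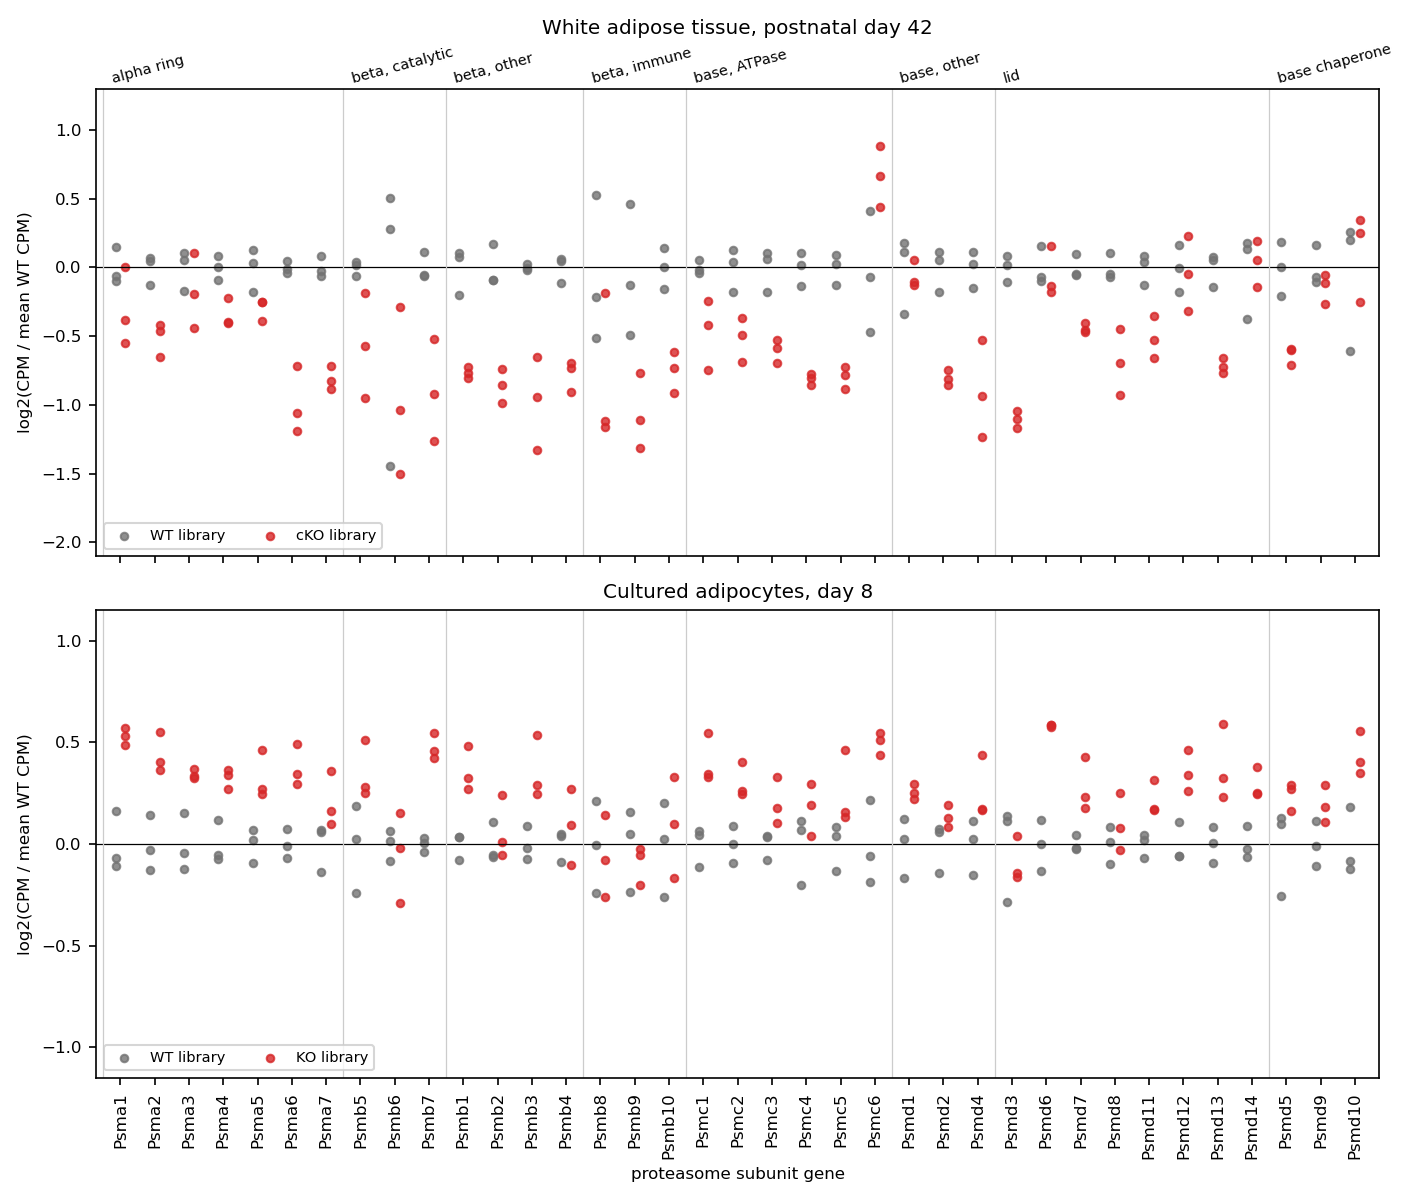
Level of each tested member in each library, as log2 of its TMM-scaled CPM over the mean of the WT libraries (y axis), ordered by role along the x axis; grey points are WT libraries and red points cKO (upper panel, WAT) or KO (lower panel, culture). The cKO WAT libraries are mostly below WT under this scaling (24 members past the threshold, but 1 with library size only) and the KO cultures mostly above (17 members, but 9 with library size only).

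The alpha ring, which forms the gate of the core, was lower in 4 of its 7 members in WAT, Psma2, Psma4, Psma6 and Psma7, with a median of -0.34. Psma6 fell from 254, 259 and 269.5 CPM in the 3 WT libraries to 125, 158 and 114 in cKO (log2 fold change -0.98 ± 0.15 (SE), adjusted p = 0.00217). Psma7 fell from 190.4, 210.5 and 195 to 107, 121 and 112 (log2 fold change -0.81 ± 0.12 (SE), adjusted p = 0.00163). In both genes every cKO library was below every WT library, and the spread within a group was small beside the gap. Psma2 (-0.51, adjusted p = 0.0121) and Psma4 (-0.34, adjusted p = 0.0428) moved less, and the call of Psma4 was lost without WT replicate 1 (-0.34, adjusted p = 0.0928), without WT replicate 2 (-0.39, adjusted p = 0.0663), without WT replicate 3 (-0.30, adjusted p = 0.131), without cKO replicate 1 (-0.42, adjusted p = 0.0638), without cKO replicate 2 (-0.33, adjusted p = 0.0594) or without cKO replicate 3 (-0.32, adjusted p = 0.104). Psma1 stood at 165, 169 and 196 CPM in WT and 135, 177 and 120.5 in cKO, the groups overlapping through cKO replicate 2, and passed only without it (-0.49 (adjusted p = 0.0209)) and after removal of the length and GC trend. Psma3 (-0.16) and Psma5 (-0.30) did not pass. Scaled by library size only, Psma6 was at -0.30 (adjusted p = 0.0904) and Psma7 at -0.13 (adjusted p = 0.327), while Psma2 was at 0.17 (adjusted p = 0.226) and Psma4, with the sign turned, at 0.34 (adjusted p = 0.0391).

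All 4 structural beta subunits were lower in cKO WAT with TMM, with a median of -0.82. Psmb3 fell from 229, 231 and 236 CPM to 121, 148 and 92.4 (log2 fold change -0.95 ± 0.18 (SE), adjusted p = 0.00455). Psmb1 fell from 276, 335 and 341 to 187, 191 and 182 (log2 fold change -0.77 ± 0.13 (SE), adjusted p = 0.00322). The WT values of Psmb3 lay within a narrow band and the 3 cKO values were spread more widely, with cKO replicate 2 nearest to WT, whereas those of Psmb1 were close together in cKO. Psmb2 (-0.86, adjusted p = 0.00219) and Psmb4 (-0.78, adjusted p = 0.00261) were lower as well. None of the 4 passed with library size only, Psmb3 being at -0.27 (adjusted p = 0.18) and Psmb1 at -0.08 (adjusted p = 0.577).

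Of the 3 constitutive catalytic subunits, 1 passed in WAT. Psmb7, with trypsin-like preference, lies on chromosome 2 (38588046 to 38643952, GRCm38) and fell from 259, 258 and 289.9 CPM to 142, 188 and 112 (log2 fold change -0.87 ± 0.20 (SE), adjusted p = 0.00908). By library size alone it was at -0.20 (adjusted p = 0.372). Psmb5, with chymotrypsin-like preference (chromosome 14, 54614120 to 54617995), stood at 299, 283 and 302 CPM in WT and 198, 259 and 152 in cKO (log2 fold change -0.54 ± 0.20 (SE), adjusted p = 0.0554). Its groups did not overlap, but cKO replicate 2 stood near WT, and without that library the value was -0.77 (adjusted p = 0.00561). It also passed with DESeq2 (-0.59 (adjusted p = 0.0156)), limma voom (-0.57 (adjusted p = 0.0432)) and RLE size factors (-0.59 (adjusted p = 0.0426)). After removal of the length and GC trend, however, it was at -0.19 (adjusted p = 0.429), and with library size only at 0.14 (adjusted p = 0.535). Psmb6, with caspase-like preference (chromosome 11, 70525324 to 70527858), stood at 28.9, 112 and 95.7 CPM in WT and 38.4, 27.8 and 64.4 in cKO (log2 fold change -0.85 ± 0.51 (SE), adjusted p = 0.192). Its groups overlapped, since WT replicate 1 was as low as the cKO libraries, and without that library it passed (-1.26 (adjusted p = 0.0314)).

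The uneven values of Psmb6 in WAT went with a second entry of the same symbol. The WAT table, unlike that of the cultures, splits some genes over numbered copies, and the plain symbol Psmb6 held 12.9%, 47.2% and 41.2% of the counts of both entries in the WT libraries and 24.6%, 18.0% and 47.8% in cKO. The copy Psmb6-2 had 4462, 2990 and 3302 counts in WT and 4958, 5151 and 3110 in cKO. With both entries summed, the level of Psmb6 was 223, 236 and 232 CPM in WT against 156, 154 and 135 in cKO, and it passed (-0.64 ± 0.12 (SE), adjusted p = 0.00374). The groups then no longer overlapped and the spread within WT was 6.70 CPM (SD, n = 3), against 43.9 for the plain symbol. How the counting divided reads between such entries is not stated in the sources used here, so levels of the plain symbols Psmb6, Psmb8, Psmb9 and Psmd10 in WAT are uncertain.

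The immune subunits were also low in cKO WAT with TMM, although leukocyte markers were high there. Psmb9 lies on chromosome 17 (34182030 to 34187330) close to Psmb8 (34198195 to 34201454), within the major histocompatibility complex, and Psmb10 on chromosome 8 (105935728 to 105938392). Psmb10 fell from 128, 143 and 158 CPM to 93.3, 75.8 and 86.0 (log2 fold change -0.75 ± 0.14 (SE), adjusted p = 0.00403). Psmb9 fell from 29.1, 37.4 and 56.3 CPM to 24.0, 16.5 and 19.0 (log2 fold change -1.05 ± 0.26 (SE), adjusted p = 0.0132). Neither group pair overlapped, and WT replicate 3 was the highest library for both. Psmb8 stood at 70.9, 87.6 and 146 CPM in WT and 89.4, 46.7 and 45.4 in cKO (log2 fold change -0.75 ± 0.35 (SE), adjusted p = 0.113), with an overlap through cKO replicate 1, without which it passed (-1.16 (adjusted p = 0.0317)). The plain symbols held 43.8% to 78.0% of the counts of Psmb8 with its copies and 43.2% to 54.4% of those of Psmb9. With copies summed, Psmb8 stood at 162, 184 and 271 CPM in WT and 114, 89.9 and 101 in cKO (-1.02, adjusted p = 0.00579) and Psmb9 at 67.0, 85.1 and 104 and 53.0, 38.3 and 37.7 (-0.995, adjusted p = 0.00574). The counts of Psmb8-2 were 1504, 1947 and 1612 in WT and 441, 876 and 1858 in cKO, those of Psmb8-3 were 187 to 1127 over the 6 libraries and those of Psmb8-4 were 39 to 429. Psmb9-2 had 607 to 898 counts, Psmb9-3 had 57 to 286 and Psmb9-4 had 21 to 211. By library size alone Psmb9 was at -0.36 (adjusted p = 0.26) and Psmb10 at -0.07 (adjusted p = 0.7), neither past the threshold. The sum of the 3 plain symbols was 285 ± 67.9 CPM (SD, n = 3) in WT and 165 ± 36.3 in cKO, and the ranges, 228 to 360.2 and 139 to 207, did not overlap. As a share of all counts the same sum was 0.0181% to 0.0286% in WT and 0.0171% to 0.0262% in cKO, which overlapped.

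The ATPase ring of the base held the members that went apart. Psmc1 to Psmc5 were lower in cKO WAT with TMM, from -0.46 for Psmc1 (adjusted p = 0.0383) to -0.81 for Psmc4 (adjusted p = 0.00171). Psmc1, Psmc2 and Psmc3 turned sign with library size only, where none of the 3 passed. Psmc6 (chromosome 14, 45329823 to 45349074), which sits in the same ring, stood at 39.6, 21.5 and 28.4 CPM in WT and 47.4, 55.1 and 40.5 in cKO (log2 fold change 0.68 ± 0.24 (SE), adjusted p = 0.0449). All 3 cKO libraries were above the highest WT library, though cKO replicate 3 only just. This was the only member called higher under TMM, and the call was lost without WT replicate 2 (0.48, adjusted p = 0.118), without WT replicate 3 (0.64, adjusted p = 0.124), without cKO replicate 1 (0.67, adjusted p = 0.105) or without cKO replicate 2 (0.54, adjusted p = 0.119). It was lost with RLE size factors too (0.62 (adjusted p = 0.0544)), and after removal of the length and GC trend the sign turned (-0.53 (adjusted p = 0.0523)). The call of Psmc1 was lost without WT replicate 1 (-0.47, adjusted p = 0.0825), without WT replicate 2 (-0.48, adjusted p = 0.089), without WT replicate 3 (-0.43, adjusted p = 0.108), without cKO replicate 1 (-0.49, adjusted p = 0.0948) or without cKO replicate 3 (-0.34, adjusted p = 0.0908), and that of Psmc2 without WT replicate 2 (-0.49, adjusted p = 0.0655), without WT replicate 3 (-0.44, adjusted p = 0.0706), without cKO replicate 1 (-0.54, adjusted p = 0.0614) or without cKO replicate 3 (-0.44, adjusted p = 0.0561).

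Of the other base subunits, the scaffold Psmd2 (-0.80, adjusted p = 0.00274) and the ubiquitin receptor Psmd4 (-0.87, adjusted p = 0.0089) were lower in cKO WAT with TMM, and the other scaffold, Psmd1, was not called (-0.06, adjusted p = 0.778). Psmd1 stood at 81.3, 59.4 and 84.9 CPM in WT and 69.9, 77.9 and 68.7 in cKO. The difference between the scaffolds was not tested. After removal of the length and GC trend both were lower, Psmd1 at -0.48 (adjusted p = 0.0272) and Psmd2 at -0.88 (adjusted p = 0.00229). With library size only, Psmd1 was higher (0.62 (adjusted p = 0.0131)) and neither Psmd2 (-0.12 (adjusted p = 0.415)) nor Psmd4 (-0.20 (adjusted p = 0.365)) passed.

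In the lid, 5 of 8 members were lower in cKO WAT with TMM: Psmd3, Psmd7, Psmd8, Psmd11 and Psmd13. Psmd3, a scaffold subunit (chromosome 11, 98682554 to 98695978), fell from 227, 248 and 259 CPM to 109, 118 and 114 (log2 fold change -1.11 ± 0.12 (SE), adjusted p = 0.000725), the largest fall among the members with TMM, and the groups lay far apart. It was also the only member lower with library size only (-0.43 (adjusted p = 0.0128)). Psmd13, another scaffold, fell from 208, 240.4 and 238 to 134, 144 and 139 (log2 fold change -0.72 ± 0.12 (SE), adjusted p = 0.00278), and with library size only it was at -0.04 (adjusted p = 0.795). Psmd14, the deubiquitinase that removes ubiquitin chains before degradation, stood at 67.4, 46.0 and 65.6 CPM in WT and 61.9, 68.2 and 54.1 in cKO (0.04, adjusted p = 0.859). Psmd12 stood at 63.6, 56.1 and 71.3 and 61.7, 74.8 and 51.1 (-0.03, adjusted p = 0.906), and Psmd6 at 56.3, 57.2 and 67.0 and 54.7, 67.0 and 53.1 (-0.05, adjusted p = 0.799). These 3 lid genes overlapped between the groups, and all 3 were higher with library size only. The calls of Psmd7 (without WT replicate 3 (-0.39, adjusted p = 0.0516) or without cKO replicate 1 (-0.45, adjusted p = 0.0542)) and Psmd11 (without cKO replicate 1 (-0.51, adjusted p = 0.0541)) were each lost when a library was left out.

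Among the base chaperones, which help to assemble the ATPase ring and are no part of the finished particle, Psmd5 was lower with TMM (-0.63, adjusted p = 0.00698). Psmd9 (-0.14, adjusted p = 0.377) did not pass. Psmd10, the oncoprotein gankyrin, stood at 11.3, 19.9 and 20.7 CPM in WT and 22.0, 14.5 and 20.6 in cKO (0.14, adjusted p = 0.694). Its copy Psmd10-2 had 246, 126 and 98 counts in WT and 289, 491 and 141 in cKO, and with both summed it was at 0.13 (adjusted p = 0.417). Psmd9 and Psmd10 were higher with library size only, and Psmd5 was at 0.05 (adjusted p = 0.76).

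Summed levels by library set the core beside the cap in WAT. The constitutive core summed to 2614 to 2934 CPM in WT and 1561 to 1971 in cKO, and the constitutive base and lid to 2797 to 3112 and 1758 to 2131, so core and cap lay at a like distance from WT. As a percentage of all counts the core took 0.208% to 0.233% in WT and 0.203% to 0.242% in cKO, which overlapped. Of the 24 lower calls, 19 held in each of the 6 fits that left out 1 library.

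**Figure D2:**
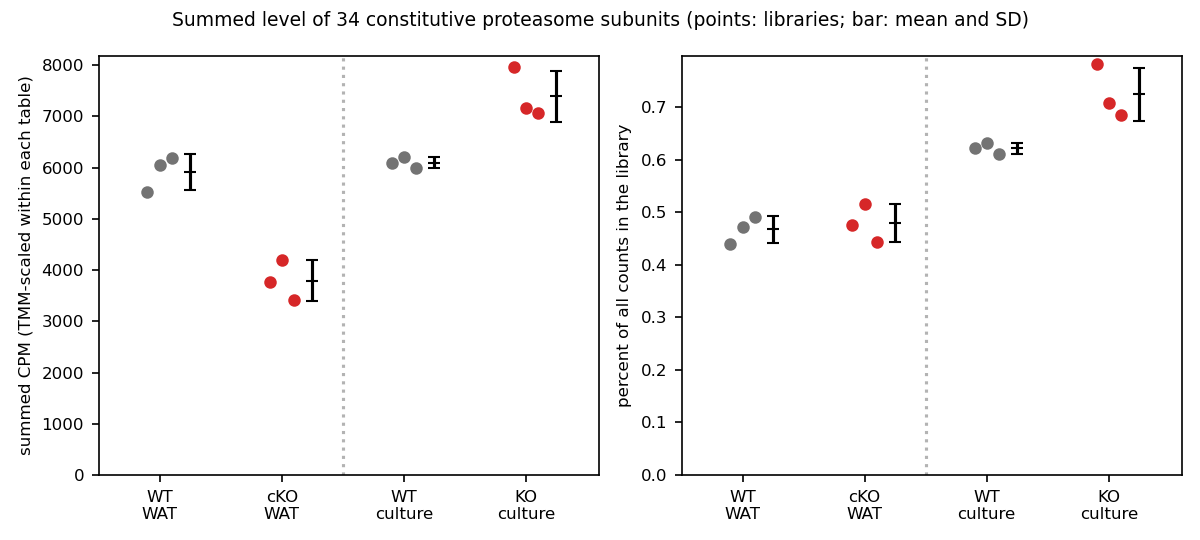
Summed level of the 34 constitutive members in each library, as CPM scaled by TMM within each table (left) and as a percentage of all counts (right); grey points are WT libraries, red points cKO or KO libraries, and bars the mean and SD of a group. The WAT groups are separate as TMM-scaled CPM and overlap as a percentage of counts, whereas in culture the KO libraries are above WT on both scales.

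Members with little GC in their transcript stood higher, relative to the rest, than members with much GC. Psmc6 has the lowest GC content of the tested members (37.0%) and Psmd3 the highest (58.3%), and they were the highest and the lowest log2 fold change in WAT. Across the 37 tested members, the Spearman correlation between GC content and log2 fold change was -0.63 in WAT and -0.66 in culture. Over all tested genes with a GC value it was -0.30 (13978 genes) and -0.35 (12337 genes). Genes are not independent replicates and all share the same libraries, so these values are descriptions with no test. After removal, in each library, of the trend of counts on GC content and transcript length, the correlation was 0.19 in WAT and -0.16 in culture. In WAT 29 members were then lower (30.7% of all genes, against 24.2% with TMM) and 0 higher (17.1%, against 28.2% with TMM). The members' median was -0.58 against -0.16 over all genes, so their gap to all genes was -0.42 and no longer -0.75. Psmd14 (-0.43 (adjusted p = 0.0433)), Psmd12 (-0.51 (adjusted p = 0.0242)) and Psma1 (-0.64 (adjusted p = 0.00886)) did not pass with TMM and were lower after this step, and Psmd3 remained lower (-0.99 (adjusted p = 0.00128)). Such values covered 85.8% of the genes tested in WAT and 98% in culture.

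**Figure D3:**
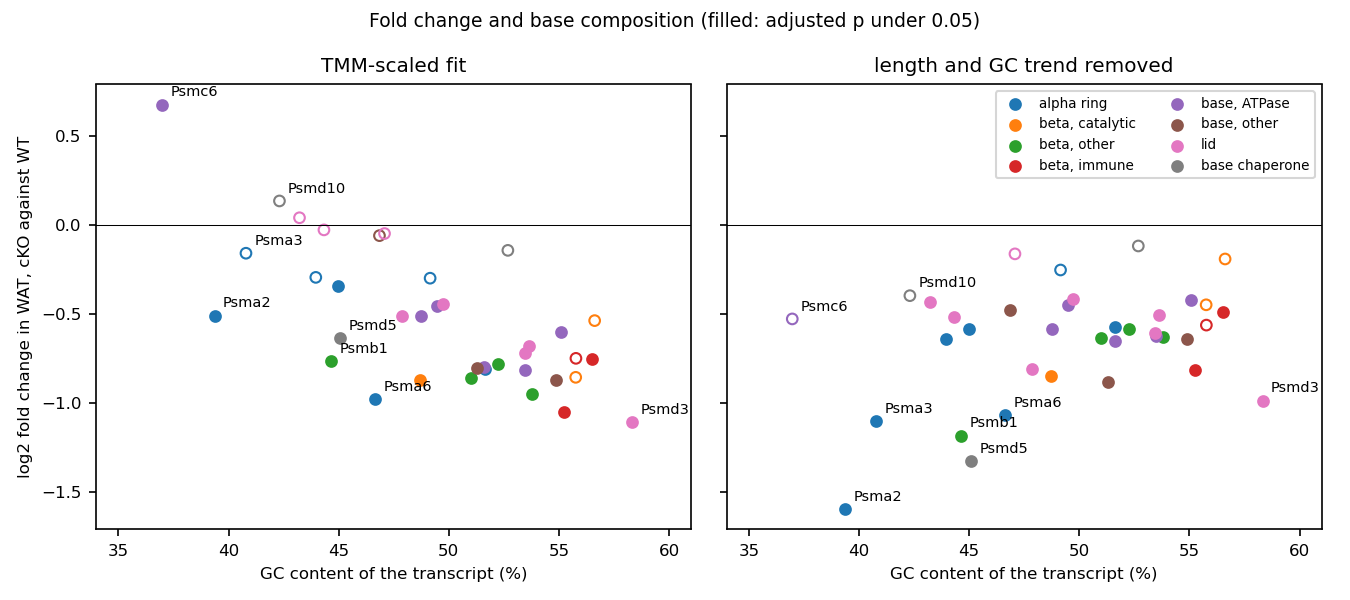
Log2 fold change in WAT (cKO against WT, y axis) of each of the 37 tested members against the GC content of its transcript in percent (x axis), with TMM (left) and after removal of the length and GC trend (right); colours give the role and filled points passed an adjusted p of 0.05. On the left Psmc6 (GC 37.0%) and Psmd3 (GC 58.3%) are at the ends, and on the right Psmc6 is below 0.

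In the cultures labelled KO the subunits stood on the other side of WT. With TMM, 17 of 37 tested members were higher (8.94% of all 12587 genes tested), 0 were lower (10.6% of all genes; 0 members at an unadjusted p under 0.05 in edgeR, 0 with DESeq2 and 0 with limma voom) and 20 did not pass. The median log2 fold change was 0.28, against -0.02 over all genes. In 27 members every KO library was above every WT library (18.0% of all genes), in 0 below (18.8%), and 10 overlapped. The summed level of the 34 constitutive members was 6096 ± 107 CPM (SD, n = 3) in WT and 7390 ± 495 in KO, and their share of all counts 0.621% ± 0.0110 and 0.724% ± 0.0505. The number called higher moved with the library left out, as did the share over all genes: it was 5 without KO replicate 1 (5.49% of all genes), 6 without WT replicate 2 (3.13%), 8 without WT replicate 1 (5.4%), 9 without KO replicate 2 (5.23%), 14 without KO replicate 3 (6.86%) and 17 without WT replicate 3 (13.5%). The members' median stayed between 0.25 and 0.32 in these fits. With library size only 9 members were higher (6.24% of all genes) and 0 lower (14.0%). After removal of the length and GC trend 9 were higher (11.2% of all genes). In 1 fit over all 4 groups, which shares the larger spread of WAT, 1 was higher (Psmd6, against 0.401% of all genes). The members called in all 6 fits that left out 1 library were Psma1, Psmb7, Psmc6 and Psmd6.

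The alpha ring was higher in 6 of 7 members in culture, with a median of 0.34. Psma1 rose from 232, 237 and 279 CPM in WT to 360.4, 349.6 and 370.1 in KO (log2 fold change 0.53 ± 0.11 (SE), adjusted p = 0.00192). Psma6 rose from 222, 232 and 245 to 328, 286 and 295 (log2 fold change 0.38 ± 0.11 (SE), adjusted p = 0.0163). In both genes the lowest KO library was well above the highest WT library. The call of Psma6 was lost without WT replicate 1 (0.35, adjusted p = 0.0647), without WT replicate 2 (0.39, adjusted p = 0.0772) or without KO replicate 1 (0.32, adjusted p = 0.0715). Psma2 (0.44), Psma3 (0.34), Psma4 (0.33) and Psma5 (0.33) passed with adjusted p-values from 0.00772 to 0.0367, and none of these 4 calls held in all 6 fits with a library left out. Psma7 stood at 216, 215 and 188 CPM in WT and 265, 231 and 221 in KO and did not pass (0.21, adjusted p = 0.185), although its groups did not overlap.

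Among the catalytic subunits in culture, Psmb7 rose from 221, 225 and 214 CPM to 321, 296 and 302 (log2 fold change 0.48 ± 0.11 (SE), adjusted p = 0.00315). Psmb5 rose from 170.2, 152 and 126 CPM to 214, 182 and 178 (log2 fold change 0.35 ± 0.12 (SE), adjusted p = 0.0402), with the KO libraries just above WT replicate 1. This call was lost without WT replicate 2 (0.38, adjusted p = 0.107), without WT replicate 3 (0.25, adjusted p = 0.0908), without KO replicate 1 (0.27, adjusted p = 0.17) or without KO replicate 2 (0.39, adjusted p = 0.0742). Psmb6 stood at 213, 236 and 228 CPM in WT and 251, 223 and 184 in KO, overlapping, with KO replicate 3 the lowest of the 6 (-0.04, adjusted p = 0.84). Of the structural beta subunits, Psmb1 rose from 249, 249 and 229.9 CPM to 339, 303 and 293 (log2 fold change 0.36 ± 0.11 (SE), adjusted p = 0.0214), a call lost without WT replicate 2 (0.40, adjusted p = 0.0735), without KO replicate 1 (0.30, adjusted p = 0.0909) or without KO replicate 2 (0.38, adjusted p = 0.0621). Psmb3 rose from 193, 208 and 186 CPM to 283, 239 and 232 (log2 fold change 0.36 ± 0.11 (SE), adjusted p = 0.025), a call lost without WT replicate 1 (0.36, adjusted p = 0.0684), without WT replicate 2 (0.42, adjusted p = 0.0593), without KO replicate 1 (0.27, adjusted p = 0.126) or without KO replicate 2 (0.40, adjusted p = 0.0561). Psmb2 (0.07) and Psmb4 (0.10) did not pass and overlapped.

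None of the 3 immune subunits passed in culture (edgeR, with 0 at an unadjusted p under 0.05, and 0 with DESeq2 or limma voom). Psmb8 stood at 43.1, 49.99 and 36.5 CPM in WT and 47.6, 40.8 and 36.0 in KO (log2 fold change -0.06 ± 0.13 (SE), adjusted p = 0.779). Psmb9 stood at 19.3, 20.8 and 15.8 and 18.3, 17.9 and 16.2 (log2 fold change -0.09 ± 0.15 (SE), adjusted p = 0.699). Psmb10 stood at 46.3, 52.3 and 37.9 and 57.2, 48.7 and 40.5 (log2 fold change 0.10 ± 0.14 (SE), adjusted p = 0.663). The groups of all 3 overlapped, WT replicate 3 being the lowest WT library for each, and their sum was 107 ± 16.4 CPM (SD, n = 3) in WT and 108 ± 15.2 in KO.

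In the regulatory particle of the cultures, Psmc6 rose from 120.3, 132 and 159 CPM to 200.2, 185 and 196 (log2 fold change 0.50 ± 0.12 (SE), adjusted p = 0.00426), but after removal of the length and GC trend it did not pass (0.20 (adjusted p = 0.0733)). Psmc1 (0.41, adjusted p = 0.0111) and Psmc2 (0.30, adjusted p = 0.0479) were higher too, Psmc3, Psmc4 and Psmc5 did not pass, and neither did Psmd1, Psmd2 or Psmd4. In the lid, Psmd6, a scaffold subunit, rose from 118, 129.6 and 141 CPM to 193, 195 and 195 (log2 fold change 0.58 ± 0.11 (SE), adjusted p = 0.000779), the largest rise and the smallest p of the members. Its 3 KO libraries were nearly equal. Psmd12 (0.36, adjusted p = 0.0248) passed, a call lost without WT replicate 1 (0.34, adjusted p = 0.0815), without WT replicate 2 (0.34, adjusted p = 0.12) or without KO replicate 1 (0.30, adjusted p = 0.094). Psmd13 rose from 137, 130.1 and 121 CPM to 195, 152 and 162 (log2 fold change 0.39 ± 0.11 (SE), adjusted p = 0.0206), a call lost without WT replicate 2 (0.40, adjusted p = 0.0768) or without KO replicate 1 (0.28, adjusted p = 0.119). Psmd3 stood at 229.7, 226 and 172 CPM in WT and 214, 187 and 189 in KO, with overlapping groups (-0.09, adjusted p = 0.645), and Psmd14 stood at 143, 146 and 158 and 194, 178 and 177 and did not pass (0.29, adjusted p = 0.0551). Of the chaperones Psmd10 rose from 18.3, 22.0 and 17.8 to 28.5, 25.6 and 24.7 (log2 fold change 0.44 ± 0.14 (SE), adjusted p = 0.0307), a call lost without WT replicate 1 (0.40, adjusted p = 0.1), without WT replicate 3 (0.38, adjusted p = 0.0522), without KO replicate 1 (0.38, adjusted p = 0.0962) or without KO replicate 2 (0.45, adjusted p = 0.0749).

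The difference between the effects in WAT and in culture was tested directly as an interaction over all 12 libraries. It was below 0, meaning a lower effect in WAT, in 28 of 38 tested members (21.1% of all 14463 genes tested) and above 0 in 0 (27.7%; 1 member at an unadjusted p under 0.05 in edgeR, 0 with DESeq2 and 0 with limma voom). The median of the difference was -0.80 over the members and 0.22 over all genes. The 4 members with the smallest p were Psma6 at -1.32 ± 0.18 (SE, adjusted p = 8.74e-05), Psmb1 at -1.09 ± 0.16 (SE, adjusted p = 0.000159), Psmd13 at -1.07 ± 0.16 (SE, adjusted p = 0.000212) and Psma7 at -0.99 ± 0.16 (SE, adjusted p = 0.00027). In Psma6, Psmb1 and Psmd13 the cKO libraries were lower than WT in WAT and the KO libraries higher in culture, without overlap in either. By role the difference passed in 6 of 7 alpha subunits, 2 of 3 catalytic, 4 of 4 structural beta, 2 of 3 immune, 5 of 6 ATPase, 2 of 3 other base, 6 of 8 lid and 1 of 3 chaperone genes. Scaled by library size only, it passed below 0 in 5 members (8.28% of all genes), Psma6, Psmb1, Psmb3, Psmb7 and Psmd13. It passed above 0 in 2, Psma8 and Psmc6 (50.7% of all genes). The median was then -0.15 over the members and 0.87 over all genes, and the gap between these medians was -1.02 under both scalings. Of the 28, 27 held in each of the 12 fits that left out 1 library; Psmb9 was lost without WAT WT replicate 3 (-0.63, adjusted p = 0.0634), without WAT cKO replicate 2 (-0.78, adjusted p = 0.0545), without culture WT replicate 3 (-0.82, adjusted p = 0.0689), without culture KO replicate 1 (-0.89, adjusted p = 0.0554) or without culture KO replicate 2 (-0.90, adjusted p = 0.0535).

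Lower in WAT and higher in culture, both with TMM, were 9 members: Psma2, Psma4, Psma6, Psmb1, Psmb3, Psmb7, Psmc1, Psmc2 and Psmd13. These are 9 of the 37 members tested in both, set against 379 of all 12343 genes tested in both (3.07%). They make up 37.5% of the 24 members lower in WAT and 52.9% of the 17 higher in culture. Those 2 shares of called members have a different base from the 3.07%, and their like was not computed over all genes. Psmc6 was higher in both. Across members the log2 fold changes in WAT and in culture had a Spearman correlation of 0.47 (37 members), so members that stood lowest in WAT tended to rise least in culture. After removal of the length and GC trend that correlation was 0.11.

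**Figure D4:**
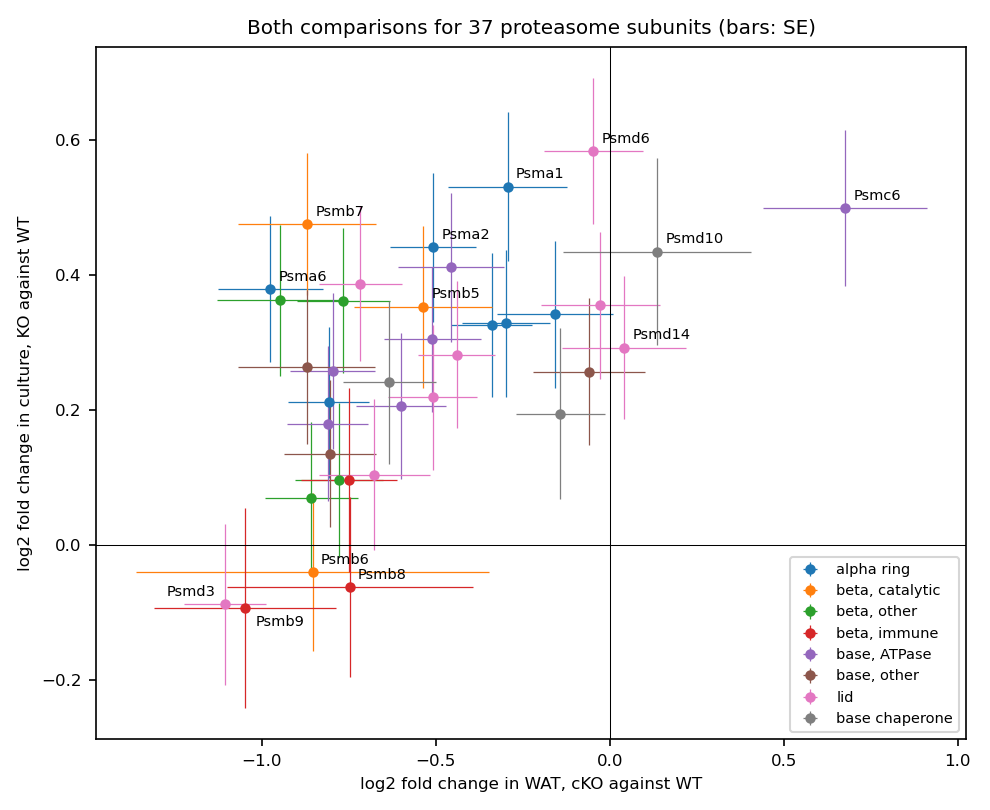
Log2 fold change in WAT (cKO against WT, x axis) against that in culture (KO against WT, y axis) for the 37 members tested in both, with TMM, coloured by role, with bars for the SE. Most points lie at the upper left, lower in WAT and higher in culture, but with library size only the median in WAT is 0.05.

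Each immune subunit was set against the constitutive subunit whose place it takes, as a ratio per length within a library, which does not depend on the scaling. In culture the ratio of Psmb8 to Psmb5 was 0.14, 0.181 and 0.159 in WT and 0.123, 0.124 and 0.112 in KO, without overlap (log2 difference -0.42, exact permutation test, two-sided, p = 0.1, adjusted over 3 pairs p = 0.3). The smallest p that 3 against 3 libraries can give is 0.1, so no ratio could pass. The ratio of Psmb10 to Psmb7 was 0.185, 0.205 and 0.157 in WT and 0.158, 0.146 and 0.119 in KO (log2 difference -0.38, exact permutation p = 0.2). That of Psmb9 to Psmb6 was 0.0534, 0.0519 and 0.0409 and 0.043, 0.0474 and 0.0518 (-0.03, exact permutation p = 0.8). In WAT the ratio of Psmb8 to Psmb5 was 0.131, 0.171 and 0.267 in WT and 0.249, 0.0994 and 0.165 in cKO (-0.18, exact permutation p = 0.7), and with copies summed the difference was -0.41 (exact permutation p = 0.5). The ratio of Psmb10 to Psmb7, neither of which has a numbered copy, was 0.437, 0.491 and 0.482 and 0.582, 0.358 and 0.679 (0.15, exact permutation p = 0.7). The ratio of Psmb9 to Psmb6 differed by -0.29 (exact permutation p = 0.7), and with copies summed it was 0.177, 0.212 and 0.263 and 0.2, 0.146 and 0.165 (-0.35, exact permutation p = 0.2). In WAT the groups overlapped in all of these ratios, cKO replicate 2 being lowest for Psmb8 to Psmb5 and for Psmb10 to Psmb7.

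**Figure D5:**
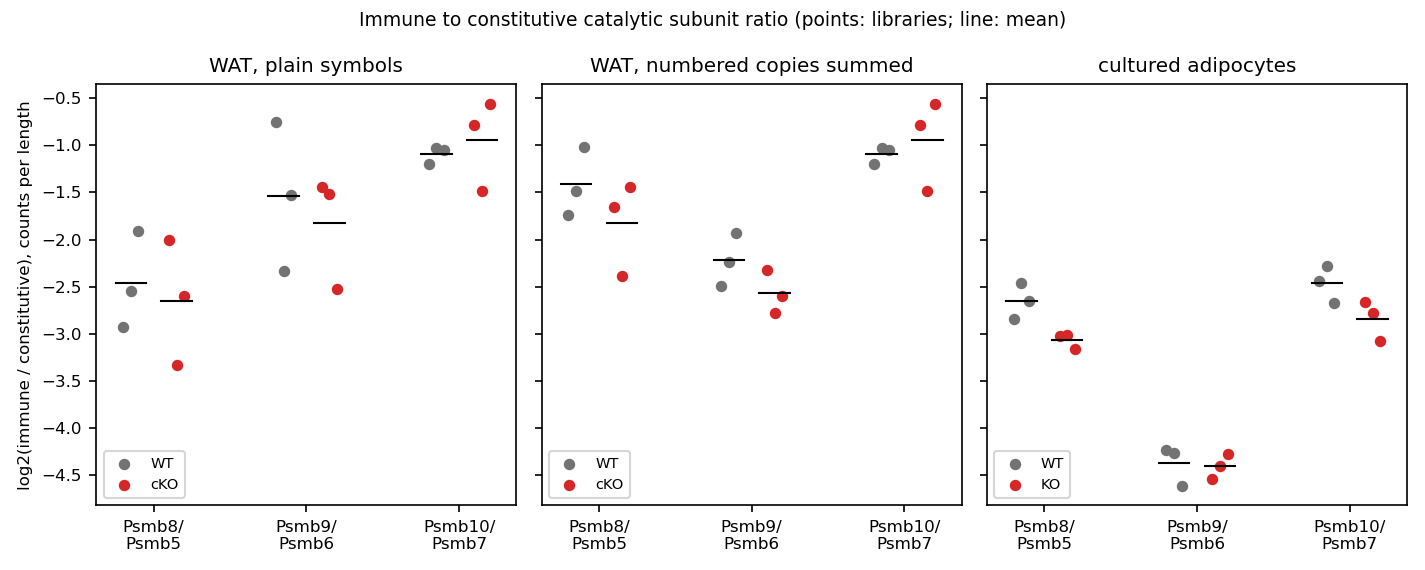
Log2 ratio, per length, of each immune catalytic subunit to the constitutive subunit it replaces, in WAT with plain symbols, in WAT with numbered copies summed and in culture; grey points are WT and red points cKO or KO libraries, and lines the group means. The groups do not overlap for Psmb8 to Psmb5 in culture (linear ratios of 0.14 to 0.181 in WT and 0.112 to 0.124 in KO).

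The genes that assemble, cap, feed and regulate the proteasome, 51 in 7 lists, moved in both directions. In WAT with TMM 7 were higher, 23 lower and 21 did not pass, and in culture 9 were higher, 6 lower and 36 did not pass. Over all genes tested, 28.2% were higher and 24.2% lower in WAT, and 8.94% and 10.6% in culture. Several of the counts below are near these shares. Fold changes below are with TMM unless another fit is named. Of the related genes with the 2 smallest p-values per list and comparison, and Nfe2l1, 7 turned sign in WAT with library size only. These are genes that passed with TMM, with library size only or with both. Sign changes that passed in neither fit are not in this count. A further 4 lost their call with library size only and kept their sign. Of the core assembly chaperones 3 of 5 were lower in WAT and 3 of 5 higher in culture. Psmg1, which with Psmg2 guides the assembly of the alpha ring, fell in WAT from 29.7, 31.9 and 44.1 CPM to 16.7, 17.0 and 13.6 (log2 fold change -1.16 ± 0.19 (SE), adjusted p = 0.00255) and rose in culture from 37.6, 35.0 and 35.5 to 56.7, 47.5 and 55.7 (log2 fold change 0.56 ± 0.12 (SE), adjusted p = 0.00213). The groups did not overlap in either, and the difference between the effects was -1.69 ± 0.22 (SE, adjusted p = 6.97e-05). Its partner Psmg2 was at -0.10 in WAT (adjusted p = 0.639) and 0.58 in culture (adjusted p = 0.00274). Psmg4, another chaperone of the core, was lower in WAT (-0.57, adjusted p = 0.0297), a call lost without WT replicate 2 (-0.52, adjusted p = 0.0874), without WT replicate 3 (-0.53, adjusted p = 0.0894), without cKO replicate 1 (-0.63, adjusted p = 0.0667) or without cKO replicate 3 (-0.50, adjusted p = 0.074). Psmg4 and Psmg2 turned sign with library size only.

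Activators that open the core, with the inhibitor in the same list, were lower in 4 of 5 genes in WAT and higher in 1 of 5 in culture. Psme1 (-0.65, adjusted p = 0.00443) and Psme2 (-0.61, adjusted p = 0.00964), which form the interferon-inducible activator, were lower in WAT, as was Psme3, the activator of the nucleus (-0.51, adjusted p = 0.0112), and all 3 turned sign with library size only, where none passed. In culture Psme2 was higher (0.32, adjusted p = 0.038), a call lost without WT replicate 1 (0.35, adjusted p = 0.0681), without WT replicate 2 (0.35, adjusted p = 0.109), without KO replicate 1 (0.26, adjusted p = 0.131), without KO replicate 2 (0.35, adjusted p = 0.085) or without KO replicate 3 (0.35, adjusted p = 0.0527). Psme3 was at -0.13 there (adjusted p = 0.421). Among proteins bound to the cap, 3 of 7 were lower and 1 higher in WAT. The ubiquitin receptor Adrm1 fell from 182, 198 and 186 CPM to 82.8, 103 and 73.9 (log2 fold change -1.12 ± 0.15 (SE), adjusted p = 0.00136) in WAT, without overlap, and stood at 0.00 in culture (adjusted p = 0.997). Ube3c, a ubiquitin ligase that binds the cap, was lower in WAT (-0.45, adjusted p = 0.0162), a call lost without WT replicate 3 (-0.42, adjusted p = 0.0585) or without cKO replicate 1 (-0.45, adjusted p = 0.0641). Txnl1, a thioredoxin-like protein of the cap, was lower in WAT (-0.57, adjusted p = 0.0247) and higher in culture (0.38, adjusted p = 0.0212). In WAT its call was lost without WT replicate 2 (-0.60, adjusted p = 0.062), without WT replicate 3 (-0.45, adjusted p = 0.0861), without cKO replicate 1 (-0.60, adjusted p = 0.0654) or without cKO replicate 3 (-0.46, adjusted p = 0.0635). Its call in the cultures was lost without WT replicate 1 (0.32, adjusted p = 0.0998), without WT replicate 2 (0.37, adjusted p = 0.0997), without KO replicate 1 (0.34, adjusted p = 0.0759) or without KO replicate 2 (0.40, adjusted p = 0.056). Ube3c and Txnl1 turned sign in WAT with library size only. Uchl5, a deubiquitinase that binds Adrm1, was at 0.89 in WAT (adjusted p = 0.0546, and 1.29 (adjusted p = 0.0124) without WT replicate 1) and higher in culture (0.38, adjusted p = 0.0378), a call lost without WT replicate 1 (0.32, adjusted p = 0.139), without WT replicate 2 (0.40, adjusted p = 0.112) or without KO replicate 1 (0.28, adjusted p = 0.168).

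Shuttle proteins, which carry ubiquitinated substrates to the cap, moved both ways in WAT, 3 of 7 higher and 2 lower, and 0 of 7 passed in culture (edgeR, with 1 at an unadjusted p under 0.05, and 0 with DESeq2 or limma voom). Zfand5 rose from 39.0, 30.8 and 36.0 CPM to 81.4, 84.6 and 74.1 (log2 fold change 1.18 ± 0.13 (SE), adjusted p = 0.000831), without overlap, but after removal of the length and GC trend it was at 0.06 (adjusted p = 0.691). Ubqln4 was lower (-0.99, adjusted p = 0.00123) and its relative Ubqln2 higher (0.75, adjusted p = 0.0247), the latter lost without cKO replicate 1 (0.66, adjusted p = 0.0877) or without cKO replicate 3 (0.74, adjusted p = 0.0519). In culture Ubqln2 was at -0.29 (adjusted p = 0.129) and Ubqln4 at -0.18 (adjusted p = 0.321). Of the genes that supply ubiquitin, 3 of 6 were lower and 1 higher in WAT. Uba1, the main enzyme that activates ubiquitin, fell from 471, 498 and 533 CPM to 222, 269 and 249.6 (log2 fold change -1.02 ± 0.14 (SE), adjusted p = 0.00136). In culture Rps27a, a fusion of ubiquitin with a ribosomal protein, stood at 126, 128 and 117 CPM in WT and 204, 588 and 343 in KO (log2 fold change 1.62 ± 0.21 (SE), adjusted p = 2.02e-05). Its KO libraries differed by more than its WT libraries, and near-identical pseudogenes may share its reads, so this value is uncertain.

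Of 11 genes of the route by which Nfe2l1 is processed and acts, 2 were higher and 3 lower in WAT, and 2 higher and 3 lower in culture. Nfe2l1 fell in WAT from 521, 573 and 495 CPM to 223, 279.7 and 210.2 (log2 fold change -1.16 ± 0.16 (SE), adjusted p = 0.00143) and in culture from 213, 216 and 203 to 147, 160.4 and 172 (log2 fold change -0.40 ± 0.11 (SE), adjusted p = 0.012). It was thus lower in both, whereas the subunits called with TMM were mostly lower in WAT and mostly higher in culture. In culture its groups did not overlap, but the call was lost without WT replicate 2 (-0.36, adjusted p = 0.088), without KO replicate 1 (-0.34, adjusted p = 0.0589) or without KO replicate 2 (-0.40, adjusted p = 0.0557), and after removal of the length and GC trend (-0.14 (adjusted p = 0.177)). Nfe2l2, the related factor of the antioxidant response, rose in WAT from 42.2, 30.1 and 36.1 CPM to 99.4, 86.5 and 89.8 (log2 fold change 1.35 ± 0.15 (SE), adjusted p = 0.000835), and Bach1, a repressor at antioxidant response elements, from 9.54, 6.05 and 8.35 to 29.4, 22.7 and 25.9 (log2 fold change 1.70 ± 0.21 (SE), adjusted p = 0.00101). Neither passed in culture (Nfe2l2 0.00, adjusted p = 0.996, and Bach1 -0.17, adjusted p = 0.43). Syvn1, a ubiquitin ligase of the endoplasmic reticulum, was lower in culture (-0.50, adjusted p = 0.0062), lost without WT replicate 2 (-0.43, adjusted p = 0.0683). Ufd1, a cofactor that draws proteins out of that membrane, was higher (0.44, adjusted p = 0.00784), lost without WT replicate 2 (0.44, adjusted p = 0.0519). In WAT Syvn1 was at -0.28 and Ufd1 at -0.03, and Ufd1 with its numbered copies summed was at -0.48 (adjusted p = 0.0365).

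Of 10 genes of class I antigen presentation, which uses the peptides that proteasomes cut, 5 were lower in WAT and 3 in culture, and 0 were higher in either (edgeR, with 0 at an unadjusted p under 0.05, and 0 with DESeq2 or limma voom). Tapbp, which loads peptides on class I molecules, fell in WAT from 302, 337 and 304 CPM to 172, 166 and 166 (log2 fold change -0.90 ± 0.12 (SE), adjusted p = 0.0012) and in culture from 187, 202 and 159 to 128, 129 and 124 (log2 fold change -0.53 ± 0.11 (SE), adjusted p = 0.00236). H2-D1, a class I heavy chain, fell in WAT from 1489, 1774 and 2302 to 803, 747 and 729 (log2 fold change -1.29 ± 0.21 (SE), adjusted p = 0.0024) and in culture from 1103, 1111 and 964 to 791, 753 and 697 (log2 fold change -0.50 ± 0.11 (SE), adjusted p = 0.0033). Both were separated between the groups in WAT and in culture. Tap2, which pumps peptides into the endoplasmic reticulum, was lower in WAT (-1.16, adjusted p = 0.00135) and in culture (-0.50, adjusted p = 0.0161), where the groups overlapped and the call was lost without WT replicate 1 (-0.40, adjusted p = 0.0859), without WT replicate 2 (-0.41, adjusted p = 0.122) or without KO replicate 2 (-0.40, adjusted p = 0.109). In culture this list was thus lower in the genes named while the immune subunits Psmb8, Psmb9 and Psmb10 overlapped between the groups. Class I heavy chain genes resemble one another closely, so reads of H2-D1 may be shared with them.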

How the data were processed

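Messenger RNA was extracted with TRIzol and sequenced after library construction with the kit MGIEasy mRNA, per the protocols in the labels. Counts of reads per gene were deposited by the authors without normalization, in a table of the WAT libraries and another of the cultures. HISAT2 2.1.0, cutadapt 1.11, FastQC 0.11.2 and GRCm38 are named in the submitters' processing notes without their roles. The tool used for counting, the annotation and the strand setting were not given in the sources used here, so reads of overlapping genes, antisense genes and near-identical copies are uncertain. Groups of 3 libraries came from the sample titles, and all sample columns were used. No 2 libraries of a group were duplicates (chi-square of their counts per degree of freedom 4.98 to 215). Numbered copies held 2.66% to 3.09% of WAT counts.

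Fits used edgeR 4.0.16 (quasi-likelihood F test, run in R 4.3.3) on the 6 libraries of a comparison or on all 12 for the interaction. They were preceded by filterByExpr (minimum count 10), TMM and followed by Benjamini-Hochberg adjustment over all genes tested (threshold 0.05). The biological coefficient of variation was 0.319 in WAT, 0.114 in culture and 0.227 over both. Lists were described by counts and medians. Alternatives were RLE size factors, library size only, no count filter, a replicate block, DESeq2 1.42.0, limma voom 3.58.1, a length and GC trend removed per library, numbered copies summed, 1 fit over all 4 groups and each library left out, and for the ratios raw counts without length. The tests were also run on simulated counts in which a limited set of genes was changed, up or down at random. Those counts held no difference in scaling between the groups. The simulation therefore cannot judge the choice between TMM and library size only in WAT. Values per library were given for the catalytic subunits, for the 4 highest and 4 lowest fold changes per comparison and for the 4 smallest interaction p-values, and from each related list the 2 smallest p-values per comparison and Nfe2l1 were named. Some genes of these lists are counted but not reported here by name. Psmd1 was given per library after its values were seen. The members and lists were chosen with earlier results of these data known.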

Additional observations from a re-analysis of the deposited data

Results flagged for a closer look

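The log2 fold change of WAT (cKO against WT) minus that of culture (KO against WT) passed the interaction test of edgeR at an adjusted p under 0.05 over all genes tested in the genes below, which were singled out for this difference between tissue and culture. The 2 sources differ in the age of the animals, the depth of the libraries and the cells they hold, which cannot be told apart from the difference between tissue and culture. Among the alpha subunits, the differences were Psma6 -1.32, Psma7 -0.99, Psma2 -0.92, Psma4 -0.63, Psma1 -0.79 and Psma5 -0.59. Among the catalytic, structural and immune beta subunits, the differences were Psmb1 -1.09, Psmb7 -1.31, Psmb3 -1.28, Psmb2 -0.89, Psmb4 -0.84, Psmb10 -0.81, Psmb5 -0.86 and Psmb9 -0.92. Among the ATPases and other base subunits, the differences were Psmc5 -1.02, Psmc4 -0.96, Psmd2 -0.90, Psmc3 -0.77, Psmd4 -1.10, Psmc2 -0.78 and Psmc1 -0.83. Among the lid subunits and base chaperones, the differences were Psmd13 -1.07, Psmd3 -0.98, Psmd7 -0.69, Psmd5 -0.84, Psmd11 -0.69, Psmd8 -0.75 and Psmd6 -0.60. Among the related genes above 0, they were Nfe2l2 1.38, Zfand5 1.20, Bach1 1.92 and Ubqln2 1.08, and among those below 0 Psmg1 -1.69, Psme2 -0.90, Adrm1 -1.09, Uba1 -0.85, Txnl1 -0.91, Ubqln4 -0.77, Nfe2l1 -0.72, H2-D1 -0.75, Psme1 -0.61, Psmg2 -0.65 and Tap2 -0.63. With library size only, 5 of the members kept a call below 0 (Psma6, Psmb1, Psmb3, Psmb7 and Psmd13), and 8.28% of all genes were below 0.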

How the results depend on the processing

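The choice of scaling moved the WAT results most. With library size only the members' median log2 fold change in WAT was 0.048, 10 were higher and 1 lower, and single genes turned sign: Psma2 0.17, Psma3 0.52, Psma4 0.34, Psma5 0.38, Psmc1 0.22, Psmc2 0.17, Psmc3 0.08, Psmd1 0.62, Psmd6 0.63, Psmd7 0.24, Psmd11 0.17, Psmd12 0.65, Psmd5 0.048, Psmd9 0.54, Psme1 0.031, Psme2 0.068, Psmg4 0.11, Ube3c 0.22, Psme3 0.17, Psmg2 0.57 and Txnl1 0.11. All genes shifted with it, 54.2% higher and 8.76% lower against 28.2% and 24.2% with TMM, and the median of all genes moved from 0.12 to 0.80. In the interaction, library size only gave 2 members above and 5 below 0, a median of -0.15 and turned signs in Psma4 0.022, Psma5 0.059, Psmd6 0.053, Psme1 0.051 and Tap2 0.019, with 50.7% of all genes above and 8.28% below 0. With the length and GC trend removed, Psmc6 (-0.53) and Psmd14 (-0.43) turned sign in WAT and Psmc6 in the interaction (-0.68). In that fit 0 members were higher in WAT, where 17.1% of all genes were higher and 30.7% lower. In culture 9 members were then higher (11.2% of all genes), with a median of 0.17 against 0.02 over all genes. RLE size factors left 0 higher in WAT. In culture, library size only gave 9 higher (6.24% of all genes higher) and 1 fit over all 4 groups 1 (0.401% of all genes higher and 0.608% lower). Leaving out 1 library gave 0 to 1 higher in WAT and 5 to 17 in culture. The cause of these changes was not tested. With the replicate number as a block, 22 members were lower and 0 higher in WAT, 23 higher in culture and 28 below 0 in the interaction; deviations of same-numbered libraries correlated at -0.35, 0.03 and -0.23 in WAT and 0.21, 0.04 and 0.25 in culture, so the numbers were not taken as pairs. Signs also changed in 68 of 3120 comparisons of single-gene fits that passed in neither fit, 19 of them with library size only, and in 8 ratio values with a library left out. In WAT and the interaction the number of lower members was within 1.5 times of the main count under every alternative but library size only. Psma8 and Psmb11, with at most 26 counts in a library, fell under the count filter and were untested in WAT and in culture.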
